A study of Homo sapiens with 4 samples.

Results

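Base excision repair is described here through 10 of its genes, POLB, XRCC1, LIG3, APEX1, UNG, OGG1, PARP1, FEN1, MUTYH and NEIL1, in gastric cancer cells with and without knockdown of the deubiquitinase USP47. The genes were given as a list and matched by symbol, and are 10 of the 63568 gene identifiers in the count files. The libraries were poly(A) RNA-Seq libraries from HGC-27, an established line of gastric carcinoma cells, infected with lentivirus (pLKO.1) that carried either a scrambled control shRNA or an shRNA against USP47. There were 2 control shRNA and 2 USP47 shRNA libraries, from stable knockdown and control cell lines. The labels speak of biological duplicates, and the methods of triplicates and of independent biological replicates for all experiments. Neither says whether these libraries came from separate cultures, so p-values measure only the spread between them. The paper writes of USP47 shRNAs in the plural for its RNA-Seq. The sources used here do not say whether both knockdown libraries carried the same USP47 shRNA, so a difference between shRNAs may be part of that spread.

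Base excision repair removes small base lesions. A DNA glycosylase cuts out the damaged base, the endonuclease APEX1 nicks the backbone at the abasic site, DNA polymerase beta (POLB) trims the remaining sugar phosphate and fills the gap, and LIG3, held by the scaffold XRCC1, seals it. PARP1 senses the break, and when the gap is filled by more than a single base, FEN1 removes the displaced flap in what is called long-patch repair. USP47 is known to take ubiquitin off POLB protein, which is otherwise marked for degradation by ubiquitin ligases. RNA counts measure transcripts only, so protein levels of POLB were not measured here, and in bulk RNA fewer cells that express a gene and less RNA per cell cannot be told apart.

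The targeted gene was lower in both libraries labelled USP47 shRNA. USP47 (chr11:11862970-11983434, all positions on GRCh37) had 1357 and 1297 reads in the control libraries against 749 and 309 reads in the knockdown libraries. As CPM (reads scaled to the library total, here after TMM scaling), these were 80.0 and 66.1 against 36.0 and 21.5, so that the knockdown libraries held 49.3% and 29.5% of the control mean. The groups did not overlap, and the second knockdown library was lower than the first. The log2 fold change (USP47 shRNA over control shRNA) was -1.34 (SE 0.21, 95% interval -1.80 to -0.87, adjusted p = 0.00362, quasi-likelihood test of edgeR, Benjamini-Hochberg adjusted across the tested genes). All later adjusted p-values come from that test unless another is named, and a gene is called where its value is under 0.05. USP47 shares 41.4% of its exonic bases with DKK3 on the opposite strand, which had 28 and 36 reads in the control libraries against 56 and 42. The part of DKK3 in the USP47 values was not tested.

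Total counts on genes were between 15649899 and 20140273 per library. Copies of 7SL RNA took 7.11% to 9.72% of the counts and a single feature 20.8% to 24.1% of the TPM, and the mitochondrial share was 5.62% and 5.68% in the control libraries against 4.82% and 4.86% with USP47 shRNA. The part of these shares in the results was not tested. Of the 21932 genes with enough reads to test, 16.1% were called in either direction, 9.56% lower and 6.52% higher with USP47 shRNA, and the median log2 fold change of all tested genes was -0.0083. With scaling by library size alone, the split was 1919 lower and 881 higher, against 2097 lower and 1430 higher here. The CPM of the 2 groups did not overlap for 61.0% of tested genes, and their deposited TPM (a level per length, scaled within each library) did not overlap for 48.5%. In this line of gastric carcinoma cells, 5 of 7 epithelial markers had at most 28 reads in every library. KRT18 and KRT19 had 0 or 1 read per library, EPCAM 3 to 12, KRT8 10 to 19 and CDH1 8 to 28. The mesenchymal filament gene VIM had 7201 to 9236 reads. The leukocyte marker PTPRC had 8 to 12 reads and the liver marker ALB 0 to 2. Of 12 markers 8 could be tested and 2 were called, both lower: EPCAM (log2 fold change -1.84, adjusted p = 0.0416) and ACTA2, a smooth muscle and fibroblast marker with 36 to 79 reads (-0.96, adjusted p = 0.0204). CDX2 had 59 to 86 reads and MUC1 244 to 470, and the part of these markers in the results was not tested.

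Knockdown of USP47 went with a lower transcript level of 1 of the 10 repair genes, the glycosylase MUTYH. No member was called higher, and the other 9 members, POLB among them, did not pass the test. That is 1 of 10 called lower beside 9.56% of all tested genes, and 0 of 10 called higher beside 6.52%. All 10 members passed the filter on low counts, and their median log2 fold change was -0.053. The CPM of the groups did not overlap for 8 of the 10 members beside 61.0% of all tested genes, and the TPM did not overlap for 4 of 10 beside 48.5%.

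**Figure D1:**
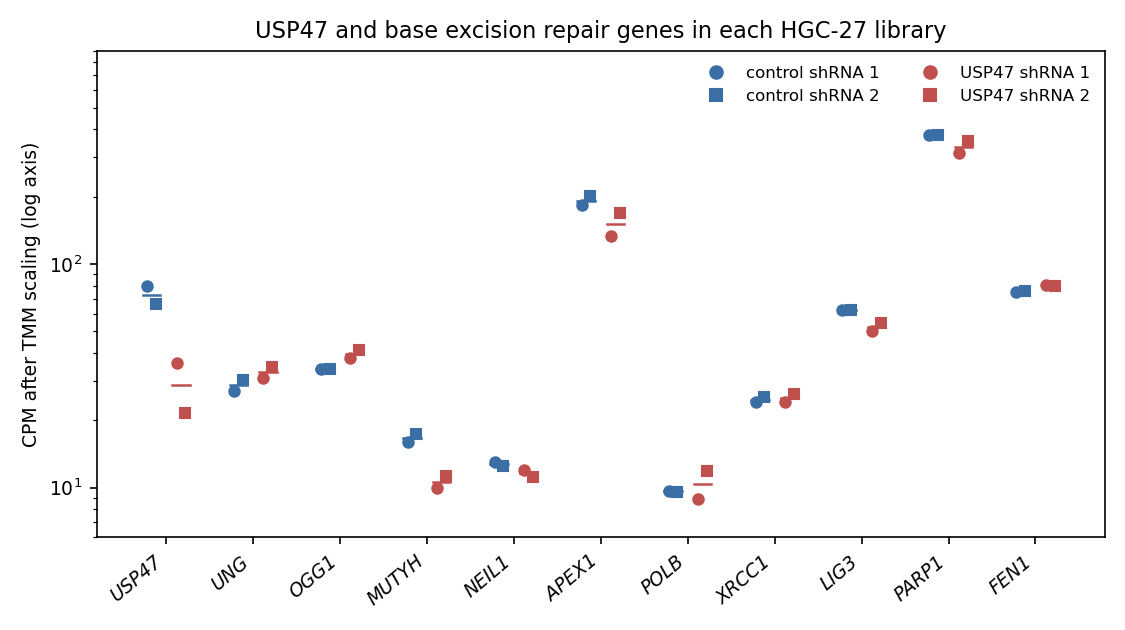
CPM after TMM scaling (log axis) of USP47 and of the 10 repair genes in each of the 4 HGC-27 libraries, with points for libraries and short lines for group means. MUTYH sits at 16.0 and 17.4 CPM in the control libraries, above its 10.0 and 11.3 CPM with knockdown, while the POLB points of the knockdown libraries lie on both sides of the control points.

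The 4 glycosylases did not move as a group. MUTYH (chr1:45794835-45806565) removes adenine paired with oxidized guanine. It had 272 and 342 reads in the control libraries against 208 and 162 in the knockdown libraries, or 16.0 and 17.4 CPM against 10.0 and 11.3 CPM. Each knockdown library was below each control, at 59.8% and 67.4% of the control mean. MUTYH fell by 0.66 on the log2 scale (SE 0.15, 95% interval -0.995 to -0.320, adjusted p = 0.0178, edgeR's quasi-likelihood test). It was called in 9 of 11 alternative fits, and the call was lost without control shRNA replicate 1 (adjusted p = 0.103) and without control shRNA replicate 2 (adjusted p = 0.179), where the lone control library was assumed to vary like the knockdown libraries. Over all 11 its adjusted p ran from 3.852e-05 to 0.179, and its log2 fold change without 1 library from -0.74 to -0.56. MUTYH shares 8.45% of its exonic bases with TOE1 on the opposite strand, and whether reads were counted by strand is not given in the sources used here. TOE1 had 320 and 378 reads against 420 and 273, a log2 fold change of 0.04 (adjusted p = 0.864).

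OGG1 (chr3:9791628-9829903) removes oxidized guanine itself, the lesion that MUTYH meets after replication. Its levels were 33.9 and 34.0 CPM in the control libraries against 37.9 and 41.1 CPM in the knockdown libraries. Both knockdown libraries lay above both controls, with a log2 fold change of 0.22 (95% interval -0.07 to 0.50) that did not pass the test (adjusted p = 0.269). OGG1 and MUTYH, which both act on sites of oxidized guanine, had values on opposite sides of the control, of which only that of MUTYH was called. OGG1 shares 4.08% of its exonic bases with TADA3 and 24.9% with CAMK1, both on the opposite strand. TADA3 fell by 0.99 on the log2 scale (adjusted p = 0.00264), and CAMK1 had 31 to 54 reads per library.

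UNG (chr12:109535402-109564530) removes uracil from DNA. It had 27.1 and 30.3 CPM in the control libraries against 31.1 and 34.8 CPM in the knockdown libraries, which did not overlap but came within 1 CPM of each other. Its log2 fold change was 0.20 (95% interval -0.11 to 0.50, adjusted p = 0.351), and ran from 0.12 to 0.28 without 1 library. NEIL1 (chr15:75639296-75649456), a glycosylase for oxidized pyrimidines, had 13.0 and 12.5 CPM against 11.97 and 11.2 CPM. Both knockdown libraries were below the controls by a small margin, with a log2 fold change of -0.13 (95% interval -0.46 to 0.20, adjusted p = 0.578). NEIL1 shares 26.4% of its exonic bases with MAN2C1 on the opposite strand, which had 882 to 1400 reads per library against 161 to 249 for NEIL1.

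APEX1 (chr14:20923350-20925931), the main AP endonuclease of human cells, had the highest level of the 10 genes per length. Its 3104 and 3953 reads in the control libraries against 2768 and 2421 in the knockdown libraries were 183 and 201 CPM against 133 and 169 CPM. Both knockdown libraries were below both controls, with the first further down, at 69.2% of the control mean, than the second, at 87.7%. The log2 fold change was -0.35 (SE 0.15, 95% interval -0.68 to -0.02, adjusted p = 0.134). APEX1 was called in 3 of 11 alternative fits, over which its adjusted p ran from 9.765e-05 to 0.587. These were the fits with library size alone (log2 fold change -0.43, adjusted p = 0.0426), with the replicate number as a block (-0.36, adjusted p = 0.00429) and without USP47 shRNA replicate 2 (-0.53, adjusted p = 9.765e-05). Its log2 fold change was -0.18 without USP47 shRNA replicate 1. Over all 21932 genes, the block fit called 3892 lower and 3530 higher, against 2097 and 1430 in the reported fit. The fits without 1 USP47 shRNA library also called more genes than the reported fit. Calls from these fits, here and below, thus stand beside a larger share of all genes. APEX1 shares 4.88% of its exonic bases with PIP4P1 on the opposite strand, which had 346 and 460 reads in the control libraries against 501 and 459.

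**Figure D2:**
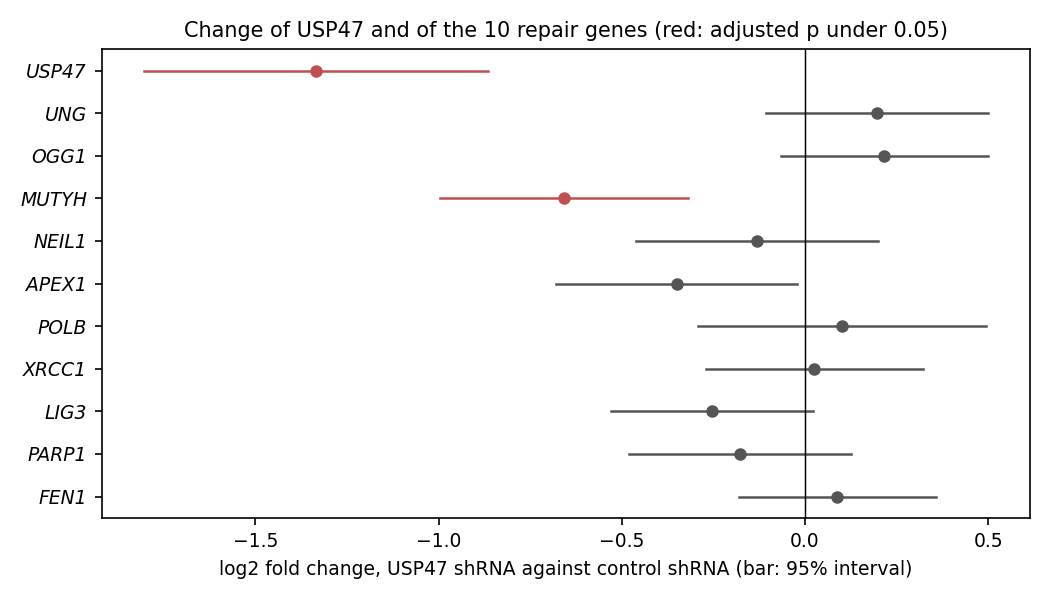
Log2 fold change of USP47 and of the 10 repair genes, USP47 shRNA against control shRNA, with bars for the 95% interval and red for an adjusted p under 0.05. USP47 (-1.34) and MUTYH (-0.66) are red, and the bars of the other members except APEX1 cross 0.

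POLB (chr8:42195972-42229326), the gap-filling polymerase whose protein USP47 acts on, showed no difference in transcript level that the test could detect. It had 164 and 188 reads in the control libraries against 186 and 170 in the knockdown libraries. On the CPM scale these were 9.67 and 9.58 against 8.94 and 11.8, so the first knockdown library lay below both controls and the second above both. The log2 fold change was 0.10 (SE 0.18, adjusted p = 0.735), and its 95% interval, -0.29 to 0.49, runs from 0.816-fold to 1.41-fold of the control level. A loss of POLB RNA as large as that of USP47 lies outside this interval, while smaller changes in either direction lie inside it. The direction rests on the second knockdown library: it was -0.10 on the log2 scale without USP47 shRNA replicate 2, and 0.31 without USP47 shRNA replicate 1. In no alternative fit was POLB called, with adjusted p-values from 0.165 to 0.936. Its exons overlap no other counted gene.

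The ubiquitin ligases and the regulator that act on POLB or APEX1 protein were read beside it. None of the 4 was called in either direction, beside 16.1% of all tested genes. HUWE1 and STUB1 (CHIP) ubiquitinate POLB, and had log2 fold changes of 0.07 (adjusted p = 0.782) and 0.09 (adjusted p = 0.712). CDKN2A, whose product ARF inhibits HUWE1, had 0.08 (adjusted p = 0.740), from counts of the whole gene that do not separate its ARF transcript. UBR3, a ligase for APEX1, had 60.7 and 59.2 CPM in the control libraries against 79.5 and 65.0 CPM in the knockdown libraries, which did not overlap. Its log2 fold change was 0.27 (95% interval -0.03 to 0.58, adjusted p = 0.199). UBR3 was called with the replicate number as a block (0.26, adjusted p = 0.0366) and without USP47 shRNA replicate 2 (0.41, adjusted p = 0.00306), and its adjusted p reached 0.634 in other alternatives.

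XRCC1 (chr19:44047463-44084625), the scaffold that binds POLB, LIG3 and PARP1, overlapped between groups. It had 24.2 and 25.4 CPM in the control libraries against 24.2 and 26.3 CPM in the knockdown libraries. The log2 fold change was 0.03 (95% interval -0.27 to 0.32, adjusted p = 0.919), and its sign turned in 4 alternative fits, all with values within 0.05 of 0. XRCC1 shares 17.6%, 8.16% and 2.48% of its exonic bases with 3 genes without a symbol. The first and second had 0 reads in every library, and the third 2 to 7.

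LIG3 (chr17:33307531-33336762), the ligase that XRCC1 carries, had 62.6 and 62.1 CPM in the control libraries against 50.1 and 54.6 CPM in the knockdown libraries. Both knockdown libraries were lower, at 80.3% and 87.6% of the control mean, and the controls differed by less than 1 CPM. The log2 fold change was -0.25 (SE 0.12, 95% interval -0.53 to 0.02, adjusted p = 0.189). LIG3 was called in 2 of 11 alternative fits, with the replicate number as a block (-0.25, adjusted p = 0.0477) and without USP47 shRNA replicate 2 (-0.31, adjusted p = 0.0404), and its adjusted p reached 0.682 in the others. LIG3 shares 29.1% of its exonic bases with RFFL on the opposite strand. RFFL, with 202 and 230 reads against 113 and 109, fell by 0.88 on the log2 scale (adjusted p = 0.0132), and its part in the LIG3 values was not tested.

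PARP1 (chr1:226547911-226595855), which binds strand breaks and calls in XRCC1, had the most reads of the 10 genes. Its levels were 378 and 377 CPM in the control libraries against 314 and 354 CPM in the knockdown libraries. Both knockdown libraries were lower, with a log2 fold change of -0.18 (95% interval -0.48 to 0.13, adjusted p = 0.399), which was -0.085 without USP47 shRNA replicate 1 and -0.26 without USP47 shRNA replicate 2. FEN1 (chr11:61560383-61564710), the flap endonuclease, had 75.1 and 76.1 CPM against 81.0 and 79.8 CPM. The knockdown libraries were higher by a narrow margin, with a log2 fold change of 0.09 (95% interval -0.18 to 0.36, adjusted p = 0.651). FEN1 shares 2.229% of its exonic bases with FADS2 on the same strand, and FADS2 fell by 1.06 on the log2 scale (adjusted p = 0.00367). Pseudogenes named after members held few reads, at most 20 per library for UNGP3, 12 for PARP1P1 and 4 for FEN1P1. Few reads were therefore counted on these copies beside those of UNG, PARP1 and FEN1. Reads that match both a member and a copy may have been left out of the counts, which these values cannot show.

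Ratios between partners put the same values on a scale that does not depend on depth. LIG3 to XRCC1, as a ratio of TPM, was 1.09 and 1.03 in the control libraries against 0.870 and 0.871 in the knockdown libraries. PARP1 to XRCC1 was 7.55 and 7.16 against 6.26 and 6.48. POLB to XRCC1 was 0.337 and 0.318 against 0.312 and 0.379. The ratios of LIG3 and PARP1 were lower in both knockdown libraries and that of POLB was not, and since they share XRCC1 as the denominator they are not separate measurements. FEN1 to PCNA, the clamp that FEN1 binds, was 0.444 and 0.452 in the control libraries against 0.504 and 0.567 in the knockdown libraries, higher in both. These ratios were not tested.

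Per length, the members spanned a wide range of levels in the control libraries. In deposited TPM (mean ± SD, n = 2), APEX1 led with 139 ± 3.06, followed by PARP1 with 72.1 ± 6.69, FEN1 with 41.8 ± 3.37 and UNG with 15.3 ± 0.143. LIG3 had 10.4 ± 0.988 TPM and XRCC1 9.80 ± 0.543 TPM, and these neighbours overlapped. MUTYH had 5.85 ± 0.181, OGG1 5.33 ± 0.462, NEIL1 3.44 ± 0.401 and POLB 3.21 ± 0.309 TPM, and the values of NEIL1 and POLB overlapped. MUTYH lay above OGG1 in both control libraries and below it in both knockdown libraries, where their means were 3.42 ± 0.408 and 5.70 ± 0.838 TPM. This crossing depends on the long OGG1 length behind the deposited TPM: per kilobase of canonical transcript, control CPM was 20.8 for OGG1 and 9.80 for MUTYH. The members whose TPM did not overlap between groups were MUTYH, APEX1, LIG3 and PARP1, all lower with USP47 shRNA. In CPM after TMM scaling, these members and NEIL1 were lower in both knockdown libraries, and UNG, OGG1 and FEN1 were higher in both. Which members stood apart thus depended on the scale, and those apart on both scales were lower on both.

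POLB's place at the low end depended on the length by which its reads were divided. The authors' length for POLB was 4106 bases, 3.18 times the 1290 bases of its canonical transcript, and for OGG1 it was 8733 bases, 5.36 times the canonical 1630. With canonical lengths, an alternative chosen after seeing the data, POLB moved from rank 10 to rank 8 and OGG1 from rank 8 to rank 4 in control CPM per kilobase. POLB then had 7.46 ± 0.0473 CPM per kilobase (mean ± SD), beside 7.44 ± 0.0404 for LIG3, so its place above LIG3 lies within the spread. NEIL1 had 3.43 CPM per kilobase. APEX1 (132), PARP1 (94.9) and FEN1 (37.5 CPM per kilobase) kept the top places.

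**Figure D3:**
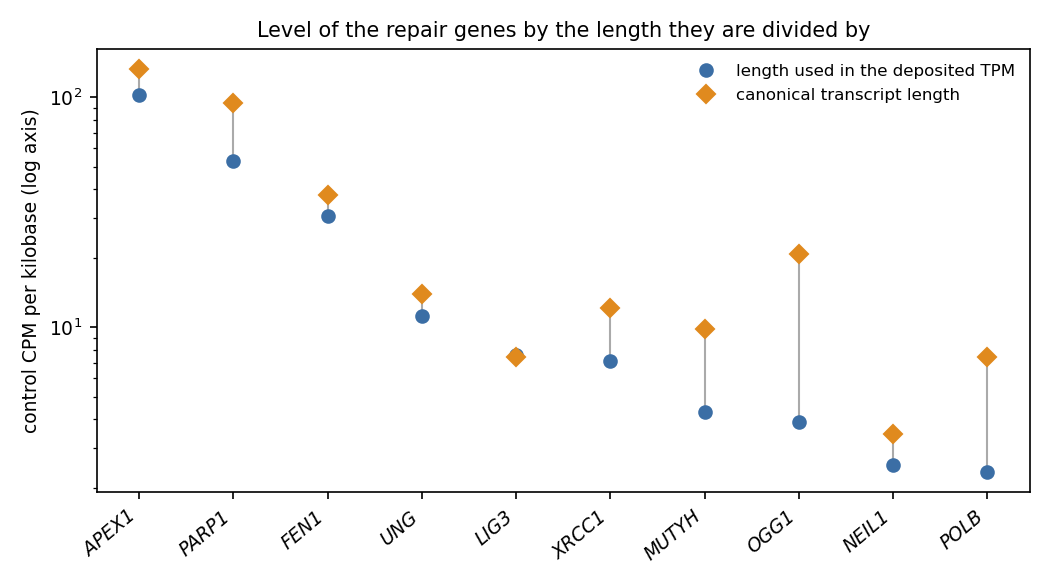
Mean control CPM per kilobase (log axis) of the 10 repair genes, by the length used in the deposited TPM (circles) and by the length of the canonical transcript (diamonds). OGG1 and POLB move up the most, and APEX1, PARP1 and FEN1 stay above the rest.

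Beyond the 10 members, 31 other genes of the pathway were tested, and 1 was called, lower with USP47 shRNA. That is 1 of 31 lower beside 9.56% of all tested genes and 0 of 31 higher beside 6.52%, and their median log2 fold change was -0.10. The called gene was PARG, the hydrolase that removes the poly(ADP-ribose) chains PARP1 makes. PARG (chr10:51026325-51130715) had 333 and 359 reads in the control libraries against 300 and 160 in the knockdown libraries, or 19.6 and 18.3 CPM against 14.4 and 11.1 CPM. Both knockdown libraries were lower, and PARG fell by 0.56 on the log2 scale (SE 0.16, 95% interval -0.92 to -0.20, adjusted p = 0.0422). It was called in 6 of 11 alternative fits, with adjusted p-values from 3.862e-05 to 0.303. The call was lost with DESeq2 (adjusted p = 0.0928), with library size alone (0.0793), with no filter on low counts (0.0565) and without control shRNA replicate 1 (0.303) or replicate 2 (0.150). Its near-identical copy PARGP1 had 377 and 503 reads against 439 and 307, more than PARG in every library, so the share of reads that belongs to each is uncertain.

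PARG aside, no pathway gene of this list was called in any role, beside 16.1% of all tested genes called in either direction. None of the 7 other glycosylases was called (median log2 fold change -0.18), and they ran from SMUG1, a further uracil glycosylase, at -0.35 (adjusted p = 0.114) to MPG, which removes alkylated purines, at 0.43 (adjusted p = 0.127). SMUG1 was called with the replicate number as a block (-0.36, adjusted p = 0.0104) and without USP47 shRNA replicate 2 (-0.48, adjusted p = 0.00257), and its adjusted p reached 0.541 elsewhere. MPG was the highest of the 31 genes, with 15.2 and 17.4 CPM in the control libraries against 18.4 and 25.7 CPM in the knockdown libraries. It was called with the replicate number as a block (0.42, adjusted p = 0.00454) and without USP47 shRNA replicate 1 (0.67, adjusted p = 3.345e-05), and its adjusted p reached 0.570 elsewhere. Of the 5 genes for end processing, 0 were called. The lowest of the 31, the end-processing factor APLF, had a log2 fold change of -1.08 (95% interval -2.13 to -0.03, adjusted p = 0.144) from only 17 and 12 reads against 6 and 7. PARP2, the relative of PARP1, had -0.13 (adjusted p = 0.531).

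None of the 16 genes listed as long-patch and replicative, a list that also held POLL, was called, beside 16.1% of all tested genes. Their median log2 fold change was -0.13. The clamp PCNA had -0.16 (adjusted p = 0.411), the replicative ligase LIG1 -0.16 (adjusted p = 0.392), the polymerase subunit POLD1 -0.25 (adjusted p = 0.186), and the repair polymerase POLL, a relative of POLB, -0.27 (adjusted p = 0.282). POLL was called with the replicate number as a block (-0.28, adjusted p = 0.0285) and without USP47 shRNA replicate 2 (-0.52, adjusted p = 0.000366), while it was at -0.037 without USP47 shRNA replicate 1, with adjusted p-values up to 0.850. UNG and FEN1 also serve replication, so the replicative helicase MCM2 to MCM7 was read beside them. None of its 6 genes was called, beside 16.1% of all tested genes. They ran from MCM6 at -0.14 to MCM2 at 0.21, with a median of -0.062. MCM6 was called lower without USP47 shRNA replicate 1 (-0.33, adjusted p = 0.0245) and was at 0.029 without USP47 shRNA replicate 2, with adjusted p-values up to 0.881 over its alternatives.

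**Figure D4:**
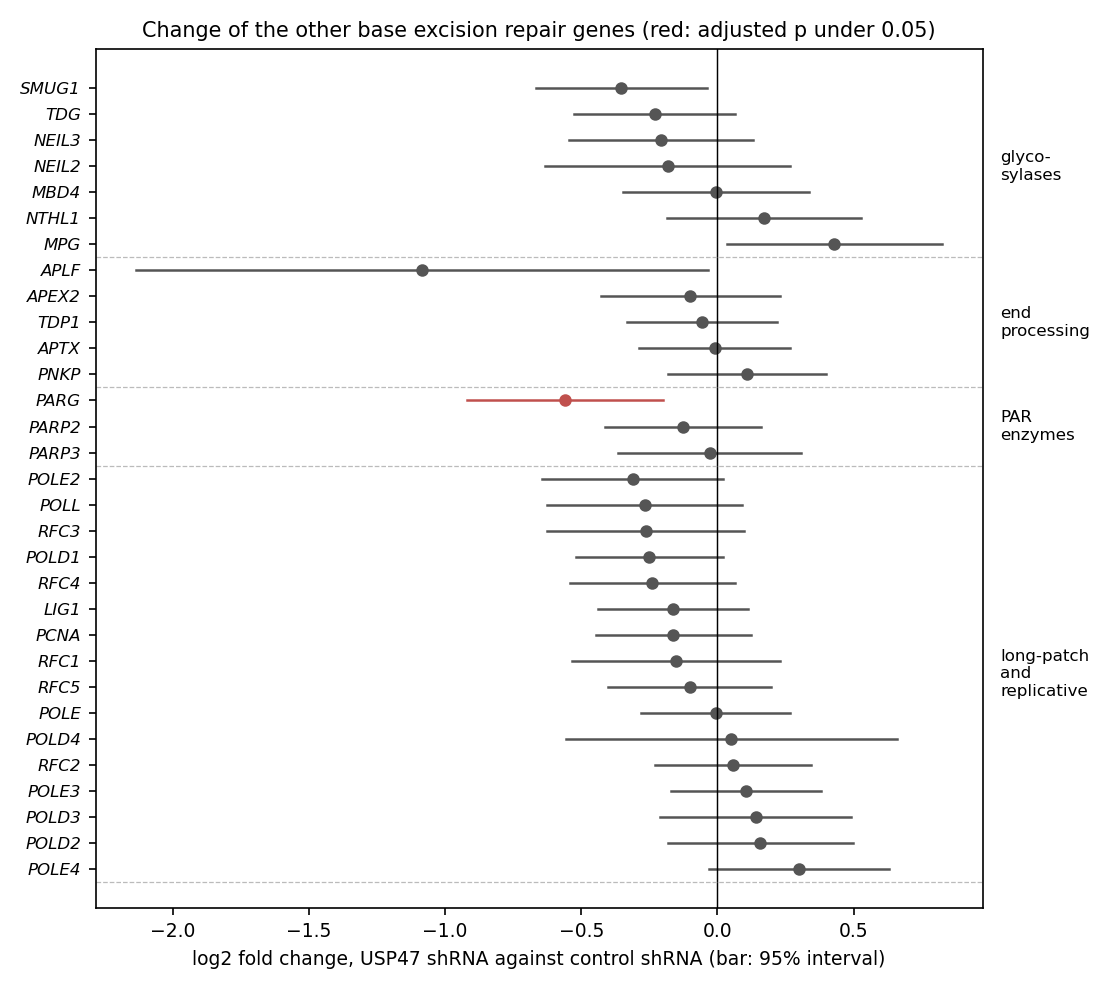
Log2 fold change, USP47 shRNA against control shRNA, of the 31 other base excision repair genes by role, with bars for the 95% interval and red for an adjusted p under 0.05. PARG (-0.56) is the only red point, and the widest bar is that of APLF, which had 6 to 17 reads per library.

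The promoters of 9 of the 10 members were held in RefSeq's table (GRCh38.p14) as 14 windows of 300 bases, from 250 before to 50 after the start site, out of 35116 windows of all genes. POLB had no entry there, so its promoter letters were not searched. The member windows had a median GC content of 67.5% and a CpG ratio (observed over expected) of 0.786, beside 58.7% and 0.579 for all windows. On either strand, the GC box GGGCGG was in windows of 7 members (71.4% of the 14 windows, 45.0% of all), and the CCAAT box CCAAT in those of 6 (57.1%, and 34.6% of all). The E2F-type letters TTTGGCGC, TTTCGCGC and TTTCCCGC were in no member window, and were in 0.652%, 0.515% and 1.63% of all. The NRF1-type GCGCATGC was in a UNG window (3.05% of all) and the ETS-type ACCGGAAG in an OGG1 window (2.17% of all). The E-box CACGTG, the letters that MYC-type and USF-type factors are known to bind, was in the windows of APEX1, FEN1, LIG3 and UNG (28.6%, beside 7.26% of all), and was searched only after the promoter letters had been read. Several windows belong to the same gene, and a match is a description of letters, not of binding.

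The upstream stretches of APEX1 (chr14:20923135-20923349, plus strand) and LIG3 (chr17:33307281-33307530, plus strand) are shown because these members were below the controls on both scales and carry the E-box. The letters come from RefSeq's table and were placed on GRCh37 by an exact match, with bases in annotated exons left out. Capitals mark the E-box, the CCAAT box (APEX1) and the GC box (LIG3).
APEX1: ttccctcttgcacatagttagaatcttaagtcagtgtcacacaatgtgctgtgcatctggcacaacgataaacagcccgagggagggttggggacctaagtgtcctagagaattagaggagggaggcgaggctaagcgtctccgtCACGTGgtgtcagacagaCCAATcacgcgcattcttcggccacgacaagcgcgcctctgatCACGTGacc
LIG3: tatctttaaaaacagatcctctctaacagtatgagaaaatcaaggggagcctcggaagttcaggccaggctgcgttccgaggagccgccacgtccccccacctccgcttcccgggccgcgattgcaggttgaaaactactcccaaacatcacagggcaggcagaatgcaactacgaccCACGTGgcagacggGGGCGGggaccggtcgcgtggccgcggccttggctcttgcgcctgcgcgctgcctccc
In APEX1, E-boxes began 105, 44 and 23 bases before the RefSeq start site, the last of them in the exonic stretch left out, and the CCAAT box 87 bases before it. In LIG3, the E-box began 72 and the GC box 58 bases before the start site. FEN1 and UNG carry the same E-box letters, and had log2 fold changes of 0.09 and 0.20. None of the 4 members with the motif was called, beside 16.1% of all tested genes. MUTYH and PARP1 were below the controls on both scales too, and their windows lacked the E-box. A link between the motif and the levels was not tested.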

How the data were processed

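The analysis used 4 poly(A) RNA-Seq libraries of HGC-27 cells, of which the labels put 2 under control shRNA and 2 under USP47 shRNA. The authors deposited raw read counts for each gene. FPKM and TPM values, made by the authors from the counts, stand beside them. Per the methods, low-quality bases were trimmed after FastQC, reads were mapped to hg19 with STAR 2.7.5c, and SAMtools 1.9 removed duplicates and low-quality reads. Without molecular identifiers, removing duplicates takes most reads from abundant transcripts. The submitters' processing notes also name Picard 2.23.3, featureCounts and DESeq2 1.26.0. The labels name a stranded library kit and the methods another kit, and the strand setting and annotation of the counting are not given in the sources used here.

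Counts were tested with edgeR 4.0.16 in R 4.3.3 (TMM, filterByExpr, robust glmQLFit without the legacy option, two-sided glmQLFTest, Benjamini-Hochberg over 21932 genes, threshold 0.05). That edgeR fit was tried on simulated counts, and the alternatives and the other steps were not. Intervals are 95% intervals of the fitted log2 fold change. TPM was used for levels between genes and for ratios, and FPKM was not compared. Symbols matched 55665 of 63568 identifiers. Positions and exon overlaps came from GENCODE release 44 on GRCh37. Its exonic bases differ from the lengths behind the deposited TPM, as for LIG3 with 12901 against 8240 bases. Overlap shares are therefore of that release and may not be those of the counted exons. Depth was between 15649899 and 20140273 counts per library.

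The members and lists were chosen with earlier results of these data known. Named genes were the members, USP47, the called genes and both ends of the pathway and turnover lists, MCM2 to MCM7 and the markers. SMUG1, PARP2, PCNA, LIG1, POLD1, POLL, HUWE1, STUB1, CDKN2A, UBR3 and the genes that overlap or copy members, USP47 or PARG were named after their values were seen. PECAM1 had no matched identifier. Alternatives were DESeq2 1.42.0 (Wald test), edgeR's legacy test, DESeq2 size factors, library size alone, no filter, a floor of 10 counts in each library, the replicate number as a block, a minimum absolute log2 fold change of 1, and each library left out.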

Additional observations from a re-analysis of the deposited data

How the results depend on the processing

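With 2 libraries a group, fits without 1 library leave a lone library that is assumed to vary like the other group. USP47 was called in all 11 alternatives with a test, from -1.75 to -1.01 without 1 library. POLB was called in none, and its log2 fold change ran from -0.10 (without USP47 shRNA replicate 2) to 0.31. XRCC1 turned to -0.044 with library size alone, -0.0055 with no filter, -0.0079 without control shRNA replicate 1 and -0.032 without USP47 shRNA replicate 2, and was at 0.096 without USP47 shRNA replicate 1. Without USP47 shRNA replicate 2, HUWE1 was at -3.359e-05 (-0.0028 with library size alone), STUB1 at -0.015, CDKN2A at -0.084 and MCM6 at 0.029, and without USP47 shRNA replicate 1 these were at 0.15, 0.20, 0.24 and -0.33. The causes were not tested. Members called lower, 1 in the reported fit, were 2 with library size alone, 0 with a minimum change of 1, and 0 to 3 without 1 library. Other pathway genes called lower, 1 as reported, were 0 with DESeq2, library size alone, no filter or the minimum change, and 0 to 6 without 1 library, where 0 to 2 were higher. Turnover genes called higher were 0 to 1 and MCM genes called lower 0 to 1 without 1 library. Over all genes, 2097 lower became 1174 with DESeq2, 889 with the minimum change and 907 to 3576 without 1 library, and 1430 higher became 881 with library size alone, 327 with the minimum change and 323 to 3770 without 1 library. With library size alone the median over all genes was -0.072. Groups did not overlap for 4 members in TPM and 8 in CPM. POLB ranked 10 by the authors' lengths and 8 by canonical lengths, chosen after seeing the data. By canonical lengths its values overlapped those of LIG3. At 164 to 188 reads per library, POLB could be compared less closely than APEX1 or PARP1.

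The replicate numbers share no stated batch or day. Deviations of replicate 1 from the group means correlated between groups with r = 0.213, too few pairs to tell whether the numbers pair the libraries. With the replicate number as a block, 3892 of 21932 genes were lower and 3530 higher, against 2097 and 1430 in the reported fit. Beside these, 3 of the 10 members were lower (MUTYH, APEX1, LIG3). Of the 31 other pathway genes 5 were lower and 1 higher, and of the 4 turnover genes 1 was higher (UBR3). POLB stayed uncalled at 0.098.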
